A study of Mus musculus with 4 samples.

Results

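Interferon-stimulated genes are genes whose transcription rises when a cell is exposed to interferon. The set described here holds 39 of the 47561 gene symbols of the deposited tables, chosen by name as interferon-induced effectors, sensors and regulators, and all 39 were found. All 39 also reached at least 1 FPKM in at least 2 libraries (FPKM, fragments scaled to transcript length and to the mapped reads of a library), as did 13148 symbols in all. Their RNA was measured by RNA-seq in LSK cells, bone marrow cells sorted for lack of lineage markers and presence of Sca-1 and c-Kit, among which blood stem cells and multipotent progenitors are found. There were 4 libraries from 12-week-old C57BL/6 mice, which the labels describe as 2 Metrn f/f mice and 2 Metrn f/f LysM mice. Both groups carried floxed Metrn, the gene of the secreted protein Meteorin. The Metrn f/f mice are also labelled WT, and the Metrn f/f LysM mice, labelled cKO and called cKO here, differed by the LysM driver, which is known for acting in monocytes, macrophages and neutrophils. The cells sorted were not of these kinds, although RNA of such kinds was in the libraries, as the marker sums given below show. Whether the driver acted in LSK cells is not stated in the labels. The labels name no infection, interferon or other treatment.

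Type I interferons, such as interferon alpha and beta, bind the receptor made of Ifnar1 and Ifnar2 and activate the kinases Jak1 and Tyk2. The signal leads to ISGF3, a complex that holds Stat2 and Irf9 and binds the interferon-stimulated response element (ISRE) in promoters. Interferon gamma binds Ifngr1 and Ifngr2, and its signal reaches promoters at the gamma-activated sequence (GAS). In blood stem cells, interferon is known to drive cells out of rest, and stem cells are known to keep some interferon-stimulated genes on without infection.

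The promoters show which of the genes carry the letters that these factors are known to bind. RefSeq windows on GRCm38.p6, from 250 bases before to 50 bases after the transcription start, were at hand for 29 of the 39 genes. The core of the ISRE was searched on both strands as GAAA, then any 2 bases, then GAAA, and overlapping matches were counted separately. It matched in 16 of the 29 genes (55.2%), against 3.99% of all 27025 genes with a window and 3.44% of all 32851 windows. The GAS was searched as TTCNNNGAA, which reads the same on both strands, and matched in 9 of the 29 genes (31.0%), against 9.55% of all genes and 8.30% of all windows. Of the 16 genes, 14 had an ISRE core before the start and 2, the RNA sensor genes Ddx58 and Ifih1, had it only after the start. Both motifs matched in 4 genes (Bst2, Igtp, Irf2 and Oas1a) and neither in 8. A match describes letters and does not show binding. The median log2 fold change between genotypes was 0.11 in the 16 genes with an ISRE core and 0.13 in the 13 without.

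The 150 bases before the start are printed for 8 genes that show these patterns, 5′ to 3′ on the strand of the gene, with every match in capitals. Isg15 (chr4:156200819-156200968, minus strand) carried 3 overlapping ISRE cores, and Ifit1 (chr19:34640739-34640888, plus strand) carried 2 that lay apart, on the other strand. In Bst2 (chr8:71537473-71537622, minus strand) a GAS ran into 2 ISRE cores. Oas1a (chr5:120907526-120907675, minus strand) had 2 overlapping cores next to the start and a GAS further away. Irf1 (chr11:53769864-53770013, plus strand) had a GAS and no ISRE core. The GTPase genes Igtp (chr11:58199406-58199555, plus strand) and Irgm1 (chr11:48871421-48871570, minus strand) both had cores within 34 bases of the start, and in Igtp a GAS stood beside it. Rsad2 (chr12:26456453-26456602, minus strand) had a single core.
Isg15: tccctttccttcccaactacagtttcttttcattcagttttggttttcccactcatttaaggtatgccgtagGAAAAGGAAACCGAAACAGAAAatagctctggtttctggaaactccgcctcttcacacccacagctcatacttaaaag
Ifit1: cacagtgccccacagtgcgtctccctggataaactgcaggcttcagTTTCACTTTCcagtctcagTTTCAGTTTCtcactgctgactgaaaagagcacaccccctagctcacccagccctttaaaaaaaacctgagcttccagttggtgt
Bst2: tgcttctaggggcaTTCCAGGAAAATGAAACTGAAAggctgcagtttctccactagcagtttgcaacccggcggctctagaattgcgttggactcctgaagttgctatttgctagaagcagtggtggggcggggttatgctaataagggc
Oas1a: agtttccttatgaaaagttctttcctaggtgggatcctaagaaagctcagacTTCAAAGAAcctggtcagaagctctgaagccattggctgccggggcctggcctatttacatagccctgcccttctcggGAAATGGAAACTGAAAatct
Irf1: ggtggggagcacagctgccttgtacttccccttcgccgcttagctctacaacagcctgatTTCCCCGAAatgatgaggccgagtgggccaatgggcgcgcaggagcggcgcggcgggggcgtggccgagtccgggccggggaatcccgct
Igtp: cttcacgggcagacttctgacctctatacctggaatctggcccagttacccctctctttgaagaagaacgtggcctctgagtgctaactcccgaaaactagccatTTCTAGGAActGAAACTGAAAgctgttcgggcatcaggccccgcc
Irgm1: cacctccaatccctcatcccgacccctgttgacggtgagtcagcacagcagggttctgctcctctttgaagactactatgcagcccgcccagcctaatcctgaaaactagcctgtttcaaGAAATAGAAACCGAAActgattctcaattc
Rsad2: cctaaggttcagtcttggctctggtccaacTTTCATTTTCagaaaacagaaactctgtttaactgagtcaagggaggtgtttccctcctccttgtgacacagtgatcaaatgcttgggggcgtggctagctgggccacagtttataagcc

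**Figure D1:**
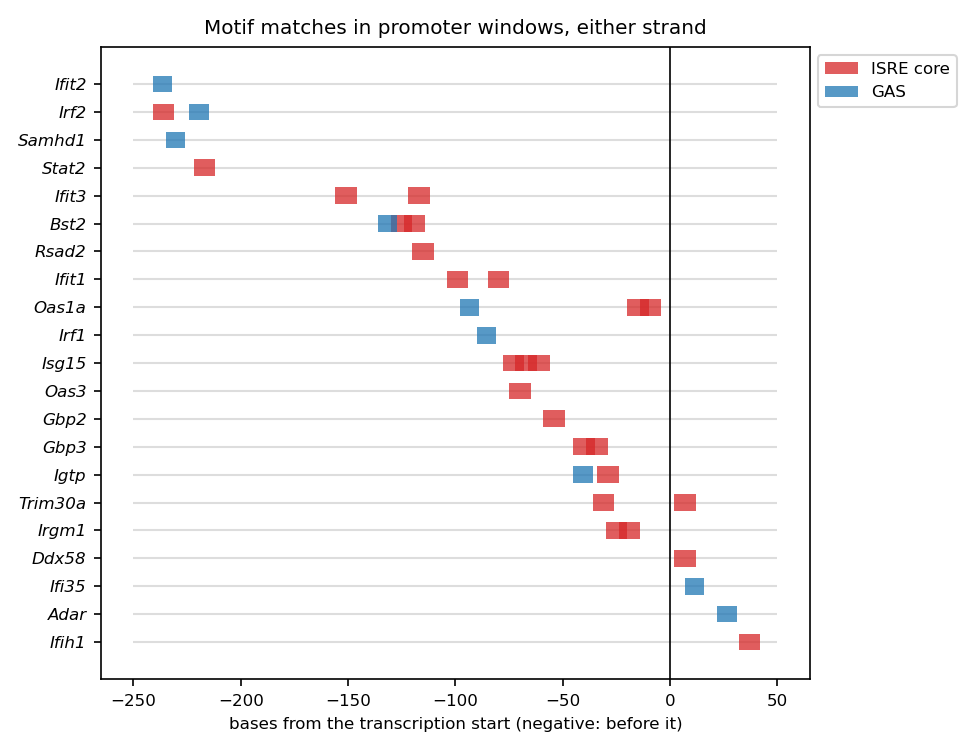
Positions of ISRE core matches (red) and GAS matches (blue) in promoter windows of the interferon-stimulated genes with at least 1 match, in bases from the transcription start. Most matches lie before the start, and Isg15, Bst2, Oas1a, Gbp3 and Irgm1 have overlapping ISRE cores, drawn darker.

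The libraries did not group by genotype label. The targeted gene Metrn had 29.3 and 66.3 FPKM in f/f mice and 42.3 and 36.7 FPKM in cKO mice, so the groups overlapped, which is no check of a deletion in other cells. Across the 13148 genes, log2 values of Metrn f/f 1 and Metrn cKO 2 correlated at r = 0.982 and those of Metrn f/f 2 and Metrn cKO 1 at r = 0.937, while the other 4 pairs had r between 0.836 and 0.877. Each library was thus most like a library of the other genotype, and every fold change between genotypes rests on the labels as given, which no value here checks. All 14 LSK and stem cell markers had a value above 0 in every library. Most marker lists of mature blood cells were higher in Metrn f/f 2 and Metrn cKO 1. The 10 neutrophil markers summed to 2561 and 32594 FPKM in f/f mice and 58488 and 2009 FPKM in cKO mice. The 15 macrophage and monocyte markers summed to 429 and 1935 FPKM and to 1179 and 381 FPKM in that order, and the 10 plasmacytoid dendritic cell markers, of a cell type known for making interferon, to 39.9 and 67.7 and to 80.5 and 42.0 FPKM. Summed levels of the erythroid list were 3982, 37637, 31494 and 3219 FPKM (Metrn f/f 1, Metrn f/f 2, Metrn cKO 1 and Metrn cKO 2), those of B and plasma cells 71.8, 544, 1077 and 84.0 FPKM, and those of conventional dendritic cells 416, 1735, 1701 and 385 FPKM. The megakaryocyte list was an exception, with 75.9, 109, 32.2 and 82.1 FPKM, lowest in Metrn cKO 1. The LSK and stem cell markers ran the other way, with summed levels of 1195, 658, 501 and 1329 FPKM. Single genes made up much of some sums. Ly6c2 had 363, 869, 944 and 309 FPKM in the macrophage and monocyte list. In the conventional dendritic cell list Cd74 had 161, 955, 1008.5 and 113 FPKM and H2-Ab1 90.7, 696, 572 and 72.4 FPKM. Flt3, in that list and the LSK list, ran against them at 153, 48.7, 78.3 and 189 FPKM. Among plasmacytoid dendritic cell markers, Cox6a2 and Tcf4 ran in opposite directions. Of these lists, those of plasmacytoid dendritic cells (Klk1) and of B and plasma cells (Ms4a1) had a marker at 0 in some library. Results are also given for Metrn f/f 1 and Metrn cKO 2 alone.

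At rest, the interferon-stimulated genes spanned the common range of expression. Their mean over the 4 libraries ran from 1.84 FPKM for Mx2 to 124 FPKM for Bst2, with a median of 11.3 FPKM against 10.1 FPKM over all genes tested, and 23 of the 39 lay above the median gene. The genes at the top were Bst2, which encodes tetherin, a membrane protein that holds budding viruses on the cell, Ifi27, and the transcription factor gene Irf1. At the bottom were Mx2, Ifit1, Ifit3 and Mx1. In the order of the 39 means, 3 of the 38 steps between neighbours were larger than the larger SD over the 4 libraries: Ifi27 above Irf1, Irf1 above Samhd1, and Samhd1 above Ifi35. The other 35 steps were within that spread. Reads of near-identical relatives (Oas1a and its cluster, Ifit3, Mx1 and Mx2, Trim30a and the Gbp genes) may be split between copies, which leaves those levels uncertain. The same holds for genes that overlap another gene. Parp9 and Dtx3l share 682 nt on opposite strands, which only counting by strand could separate, and the strand setting is not given in the sources used here. Igtp shares 7974 nt with Irgm2 on the same strand.

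**Figure D2:**
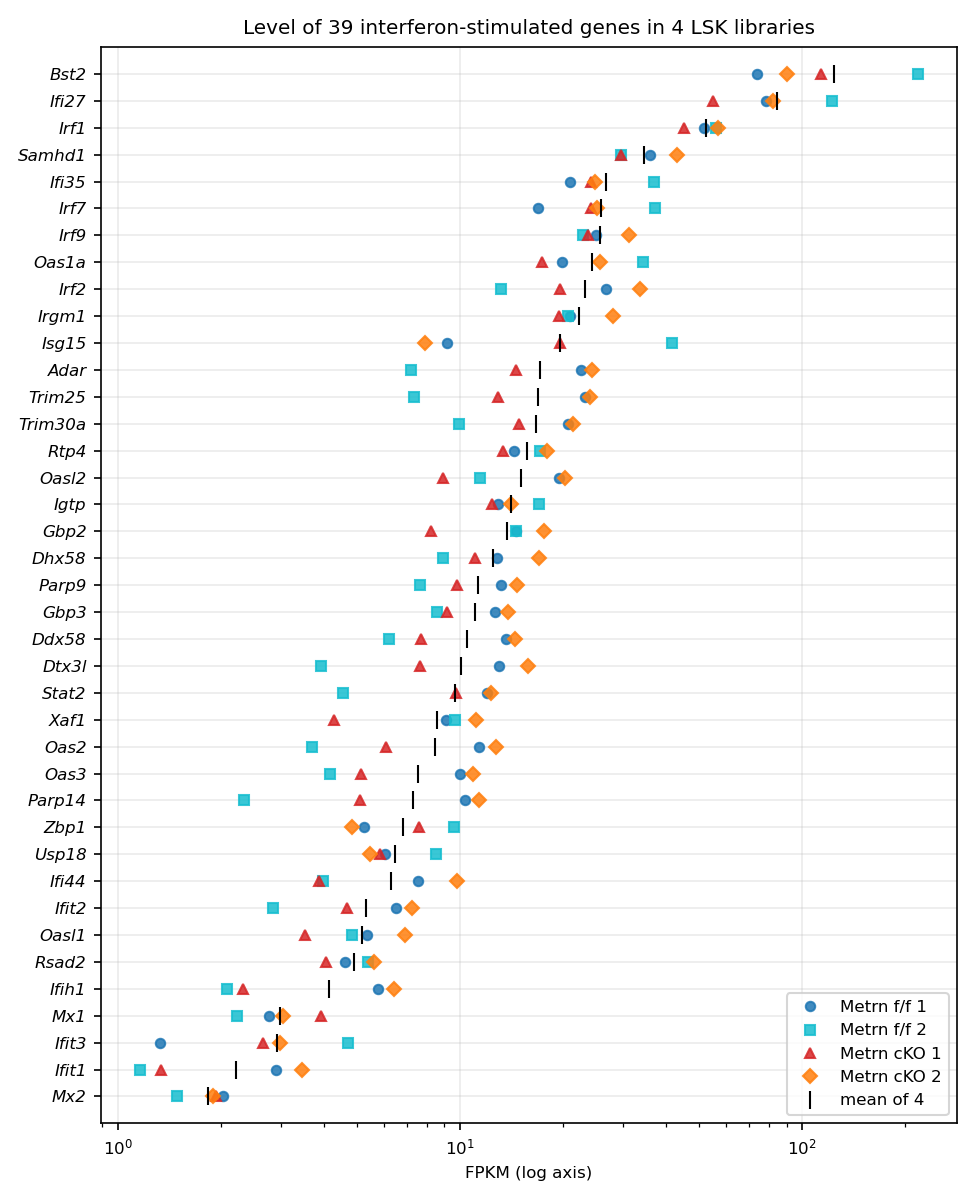
FPKM on a log axis for each of the 39 genes in the 4 libraries, with a bar at the mean, ordered by mean. Levels run from 1.84 FPKM for Mx2 to 124 FPKM for Bst2, and the squares of Metrn f/f 2 lie apart from the circles and diamonds of Metrn f/f 1 and Metrn cKO 2 in many genes.

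The transcription factors of the response were compared first. Irf7, the amplifier of interferon production (chromosome 7, positions 141262706 to 141266481 of GRCm38), had 16.9 and 37.1 FPKM in f/f mice and 24.1 and 25.1 FPKM in cKO mice. Both cKO values lay between the f/f values, and the log2 fold change, here and throughout of Metrn cKO over Metrn f/f on the log2(FPKM + 1) scale, was -0.03 (SE 0.49). Irf9, the DNA-binding part of ISGF3 (chromosome 14, positions 55603571 to 55610030), had 24.96 and 22.8 FPKM in f/f mice and 23.7 and 31.2 FPKM in cKO mice, with a log2 fold change of 0.18 (SE 0.39). Its highest value was that of Metrn cKO 2. Its partner Stat2 (chromosome 10, positions 128270559 to 128292849) had 12.0 and 4.55 FPKM in f/f mice and 9.75 and 12.3 FPKM in cKO mice, with a log2 fold change of 0.50 (SE 0.57). The low Stat2 value was that of Metrn f/f 2, and the other 3 libraries stayed within 9.75 to 12.3 FPKM. Irf1, an early target of interferon gamma, had 51.8, 56.2, 45.2 and 56.8 FPKM. In FPKM as deposited it was the steadiest of the 39 genes, with a highest value 1.26 times the lowest. The summed FPKM of the libraries differed (392717, 671802, 562401 and 412955 in the same order), and the ranking was not repeated on a common sum. Irf2, known as a counterpart of Irf1 that restrains interferon signals in stem cells of the blood (chromosome 8, positions 46739732 to 46847458), had 26.7 and 13.2 FPKM in f/f mice and 19.6 and 33.5 FPKM in cKO mice. Its log2 fold change was 0.42 (SE 0.51), and the groups overlapped.

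Isg15 varied most of all 39 genes in FPKM as deposited, with a highest value 5.25 times the lowest. This ranking, too, was not repeated on a common sum. It encodes a ubiquitin-like protein that is joined to other proteins (chromosome 4, positions 156199424 to 156200818) and had 9.16 and 41.6 FPKM in f/f mice and 19.6 and 7.92 FPKM in cKO mice. The lowest and the highest value thus stood in different genotypes with the groups interleaved, and the log2 fold change was -0.62 (SE 0.78). Usp18, the protease that removes the Isg15 protein and damps the receptor, had 6.04 and 8.49 FPKM in f/f mice and 5.83 and 5.45 FPKM in cKO mice. It was the only 1 of the 39 genes with both cKO values below both f/f values, and the nearest values, 6.04 and 5.83 FPKM, lay closer together than the Metrn f/f replicates. The Ifit genes, whose proteins bind foreign RNA, were at low levels. Ifit2 had 6.53 and 2.84 FPKM in f/f mice and 4.67 and 7.25 FPKM in cKO mice, Ifit1 had at most 3.46 FPKM and Ifit3 at most 4.70 FPKM in any library. Ifit1 and Ifit2 were lowest in Metrn f/f 2, where Ifit3 was highest.

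The oligoadenylate synthetases make the messenger that turns on the nuclease RNase L. Oas1a had 19.8 and 34.3 FPKM in f/f mice and 17.4 and 25.6 FPKM in cKO mice. Oas2 had 11.4 and 3.70 FPKM in f/f mice and 6.10 and 12.7 FPKM in cKO mice, and Oas3 followed it with 10.02, 4.18, 5.14 and 10.9 FPKM. Oas1a was therefore highest in the library in which Oas2 and Oas3 were lowest. The related genes Oasl1 and Oasl2 had 3.53 to 6.93 and 8.94 to 20.3 FPKM, both lowest in Metrn cKO 1. Their groups overlapped, and the median log2 fold change of the 5 genes was -0.02.

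Sensors of foreign nucleic acid had means from 4.14 FPKM for Ifih1 to 12.5 FPKM for Dhx58, beside a median of 10.1 FPKM over all genes tested. Ddx58, which encodes the RNA sensor RIG-I, had 13.6 and 6.23 FPKM in f/f mice and 7.69 and 14.5 FPKM in cKO mice. Ifih1, the gene of a sensor of long double-stranded RNA, had 5.75 and 2.09 FPKM in f/f mice and 2.32 and 6.42 FPKM in cKO mice. Both were about as high in Metrn f/f 1 as in Metrn cKO 2 and lower in the other 2 libraries. Dhx58, a regulator of these sensors, ranged from 8.91 to 16.98 FPKM, and Zbp1, a sensor of Z-form nucleic acid that can start necroptosis, from 4.85 to 9.59 FPKM. Zbp1 ran against the other sensors and was lowest in Metrn cKO 2 and highest in Metrn f/f 2.

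Among the antiviral effectors, Bst2 had 73.7 and 218 FPKM in f/f mice and 113 and 90.6 FPKM in cKO mice, so that Metrn f/f 2 stood above the rest. Samhd1, an enzyme that depletes nucleotides, had 35.9, 29.6, 29.6 and 43.1 FPKM. Adar, the gene of an editor of adenosine in double-stranded RNA that blood stem cells require (chromosome 3, positions 89715022 to 89753446), had 22.6 and 7.20 FPKM in f/f mice and 14.5 and 24.3 FPKM in cKO mice. Its log2 fold change of 0.51 (SE 0.62) rested on the low value of Metrn f/f 2: without that library it was -0.25. Mx1 had 2.78 and 2.22 FPKM in f/f mice and 3.91 and 3.05 FPKM in cKO mice, and it was the only 1 of the 39 genes with both cKO values above both f/f values. Common laboratory strains including C57BL/6 carry defective Mx1 alleles, and these levels are of its RNA. GENCODE annotates Mx2 as a polymorphic pseudogene, and its levels are likewise of RNA. Mx2, Rsad2 (the gene of viperin) and Rtp4 ranged from 1.49 to 2.03, 4.05 to 5.61 and 13.3 to 17.9 FPKM. In these 3 genes the highest value was less than 2.20 times the lowest, the median ratio of the set.

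Among ubiquitin ligases and ADP-ribosyltransferases, the Metrn f/f mice stood far apart. Trim25, a ligase that activates RIG-I, had 23.2 and 7.35 FPKM in f/f mice and 12.9 and 24.1 FPKM in cKO mice. Parp14 had 10.4 and 2.33 FPKM in f/f mice and 5.09 and 11.4 FPKM in cKO mice. Dtx3l and Parp9, whose proteins work as a pair and whose genes overlap head to head, had 13.0, 3.93, 7.64 and 15.8 FPKM and 13.2, 7.63, 9.82 and 14.7 FPKM. Trim30a had 20.6 and 9.92 FPKM in f/f mice and 14.9 and 21.4 FPKM in cKO mice. In all 5 genes the order of libraries was Metrn f/f 2, Metrn cKO 1, Metrn f/f 1 and Metrn cKO 2 from low to high, with the groups interleaved. All 5 fold changes were above 0, with a median of 0.39, and none passed the test. With each library's trend with transcript length removed the median was 0.15.

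The interferon-inducible GTPases, which attack vacuoles that hold pathogens, differed less between libraries. Irgm1, which is needed to keep blood stem cells at rest under interferon, had 20.9 and 20.7 FPKM in f/f mice and 19.5 and 28.0 FPKM in cKO mice. Igtp had 12.9, 17.004, 12.4 and 14.1 FPKM and Gbp2 had 14.6, 14.5, 8.24 and 17.7 FPKM. Gbp3 ranged from 8.57 to 13.8 FPKM. In each of these genes the groups overlapped. Of the remaining genes, Ifi27, the gene of a small membrane protein (chromosome 12, positions 103434211 to 103440239), had 78.4 and 122 FPKM in f/f mice and 54.9 and 82.1 FPKM in cKO mice. Its log2 fold change was -0.54 (SE 0.44), and the groups overlapped. The proapoptotic gene Xaf1 (chromosome 11, positions 72301629 to 72313733) had 9.11 and 9.68 FPKM in f/f mice and 4.29 and 11.1 FPKM in cKO mice, with a log2 fold change of -0.37 (SE 0.57). Ifi35 ranged from 21.0 to 37.0 FPKM and Ifi44 from 3.87 to 9.81 FPKM.

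Between genotypes no interferon-stimulated gene passed the test. By limma on log2(FPKM + 1), 0 of 39 genes had an adjusted p under 0.05, as did 0 of all 13148 genes (0%), and each of the 39 had an adjusted p of 1.00. Without adjustment, 0 of 39 had a p under 0.05, against 39 of 13148 genes (0.297%). The smallest unadjusted p by limma were 0.270 for Ifi27, 0.455 for Isg15 and 0.534 for Xaf1 among lower values and 0.416 for Stat2, 0.437 for Irf2 and 0.439 for Adar among higher values. By the same fit the unadjusted p was 0.957 for Irf7 and 0.661 for Irf9. The median log2 fold change was 0.12, with 23 genes above 0 and 16 below, beside a median of 0.07 over all genes, of which 57.6% were above 0. Groups that did not overlap were rare: 1 gene (Mx1) had both cKO values above, against 6.31% of all genes, and 1 (Usp18) had both below, against 5.73%. Neither gene kept that separation when libraries were scaled to a common sum (TPM) or quantile normalized. With 2 mice a group, a single gene tested by exact permutation could not have gone below p = 0.333.

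The intervals show what differences these data leave room for. The 95% interval of the log2 fold change ran from -1.001 to 0.82 for Irf1, from -1.19 to 1.14 for Irf7 and from -0.76 to 1.13 for Irf9, so 2-fold changes lie near the edges of these intervals. For Isg15 it ran from -2.49 to 1.25 and for Parp14 from -1.30 to 2.29, so 2-fold changes lie well within them. It ran from -1.61 to 0.53 for Ifi27, from -1.75 to 0.997 for Xaf1, from -0.88 to 1.87 for Stat2, from -0.81 to 1.65 for Irf2 and from -0.98 to 1.995 for Adar. With each library left out in turn the median of the set went from -0.14 without Metrn cKO 2 to 0.38 without Metrn cKO 1, and it was -0.08 without Metrn f/f 2 and 0.24 without Metrn f/f 1.

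**Figure D3:**
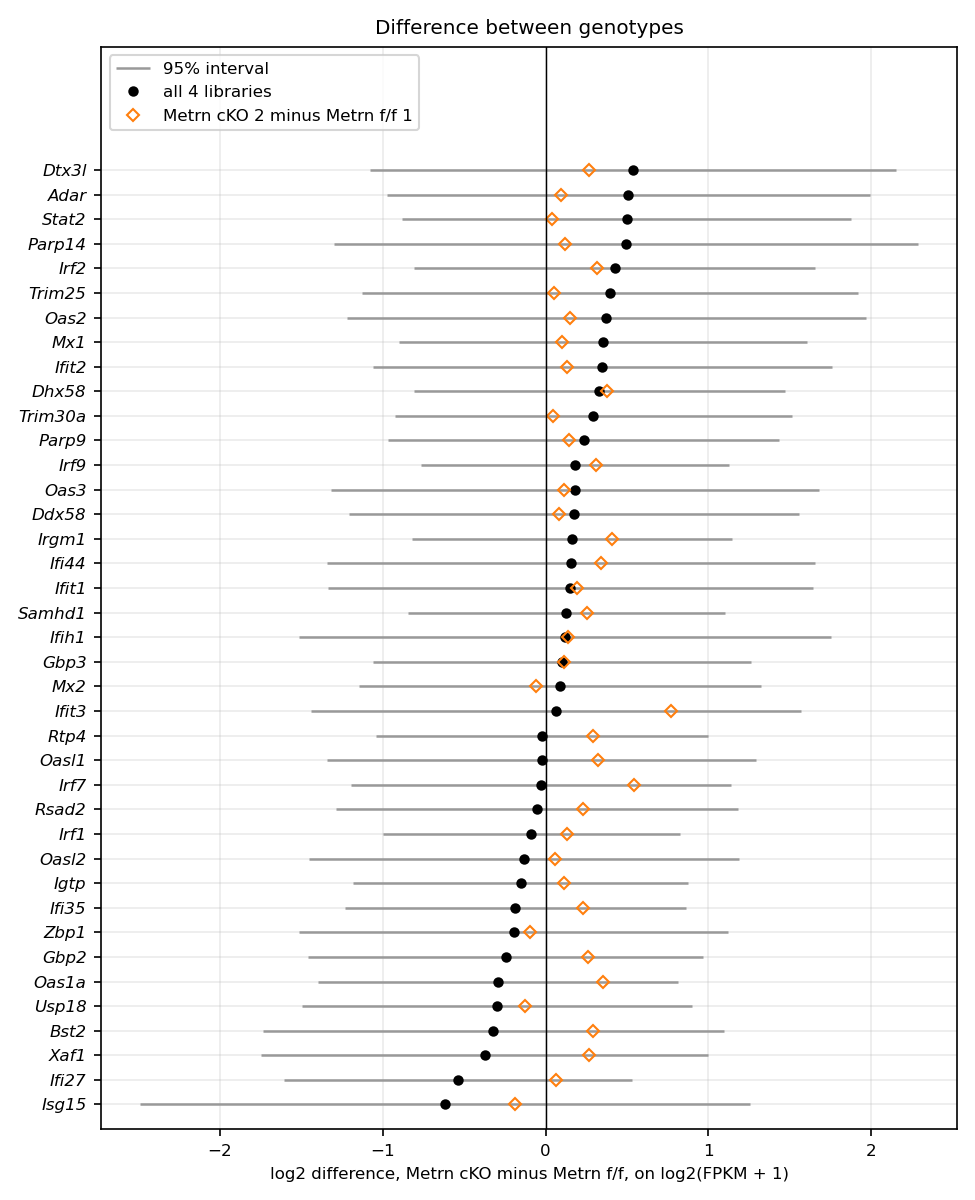
Log2 difference of Metrn cKO minus Metrn f/f for the 39 genes (black points, all 4 libraries) with the 95% interval of limma (grey lines), and the difference of Metrn cKO 2 minus Metrn f/f 1 (open orange diamonds). Every interval includes 0, and the diamonds lie nearer to 0 than the black points in the genes at the top and at the bottom.

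Between the 2 libraries most alike, Metrn cKO 2 and Metrn f/f 1, the genes differed little. The median log2 difference was 0.14, against 0.04 over all genes, and the range was from -0.19 for Isg15 to 0.77 for Ifit3. None of the 39 genes was 2-fold higher (0.745% of all genes were) or 2-fold lower (0.616%). In this pair 35 of 39 genes were higher in Metrn cKO 2, against 57.9% of all genes, and the 4 that were lower were Isg15, Mx2, Usp18 and Zbp1. The genes with the largest differences after Ifit3 were Irf7 at 0.55, Irgm1 at 0.41 and Dhx58 at 0.38. The remaining pair, Metrn cKO 1 against Metrn f/f 2, showed no such shift. In it 20 of 39 genes were higher in Metrn cKO 1, against 54.9% of all genes, and 19 were lower. Their log2 differences had a median of 0.00031 and ran from -1.14 for Ifi27 to 0.95 for Stat2. None of the 39 was 2-fold higher (7.09% of all genes were), and 3 (Ifi27, Isg15 and Xaf1) were at least 2-fold lower (6.33%). The counts in both pairs are of FPKM as deposited and were not repeated on a common sum. Summed FPKM was 412955 in Metrn cKO 2 and 392717 in Metrn f/f 1. It was 562401 in Metrn cKO 1 and 671802 in Metrn f/f 2. Each of these pairs is 1 mouse against 1, with no replicate check, so the values describe the libraries and not the genotypes.

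Mice of the same genotype also differed in these genes. The median size of the log2 difference was 0.76 between the f/f mice and 0.54 between the cKO mice, beside 0.75 and 0.49 over all genes. Across genotypes it was 0.15 for Metrn cKO 2 and Metrn f/f 1 and 0.47 for Metrn cKO 1 and Metrn f/f 2, beside 0.15 and 0.47 over all genes. Between Metrn f/f 2 and Metrn f/f 1, 4 genes (Bst2, Ifit3, Irf7 and Isg15) were at least 2-fold higher in Metrn f/f 2, against 13.7% of all genes, and 9 (Adar, Ddx58, Dtx3l, Ifih1, Oas2, Oas3, Parp14, Stat2 and Trim25) were at least 2-fold lower, against 21.9%. The log2 differences ran from -1.77 for Parp14 to 2.07 for Isg15. Between the Metrn cKO libraries, Isg15 was at least 2-fold higher in Metrn cKO 1 (6.72% of all genes were), and 6 genes (Gbp2, Ifi44, Ifih1, Oasl2, Parp14 and Xaf1) were at least 2-fold lower (12.4%). The lowest of the 4 values was in Metrn f/f 2 for 20 genes (44.6% of all genes), in Metrn cKO 1 for 12 (22.0%), in Metrn f/f 1 for 4 (19.9%) and in Metrn cKO 2 for 3 (13.5%). The highest was in Metrn cKO 2 for 27 genes (32.4% of all genes), in Metrn f/f 2 for 10 (29.8%), in Metrn f/f 1 for 1 (23.0%) and in Metrn cKO 1 for 1 (14.8%). All these counts are of FPKM as deposited. Summed FPKM was 392717 and 671802 in f/f mice and 562401 and 412955 in cKO mice, and the counts were not repeated on a common sum. In such bulk RNA, fewer cells of a type and less RNA per cell cannot be told apart.

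The gap between the Metrn f/f mice followed the length of the transcript. Across the 39 genes, the log2 difference between Metrn f/f 2 and Metrn f/f 1 (the second subtracted) had a Spearman rho of -0.83 with the length of the longest GENCODE transcript, and across 10948 protein-coding genes of the same libraries rho was -0.72. The 8 shortest, up to 1942 nt and with Isg15, Bst2 and Ifi27 among them, had a median difference of 0.77, beside 0.81 for all genes of that length. The 5 longest, from 5145 nt (Ifih1, Adar, Trim25, Parp14 and Dtx3l), had a median of -1.53, beside -1.35. Between Metrn cKO 1 and Metrn cKO 2 rho was -0.51 over the 39 genes and -0.43 over all. Between Metrn cKO 2 and Metrn f/f 1 it was -0.08 and -0.18, and for Metrn cKO 1 minus Metrn f/f 2 it was 0.77 and 0.60. All genes of a pair share the 2 libraries, so the coefficients are descriptions.

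**Figure D4:**
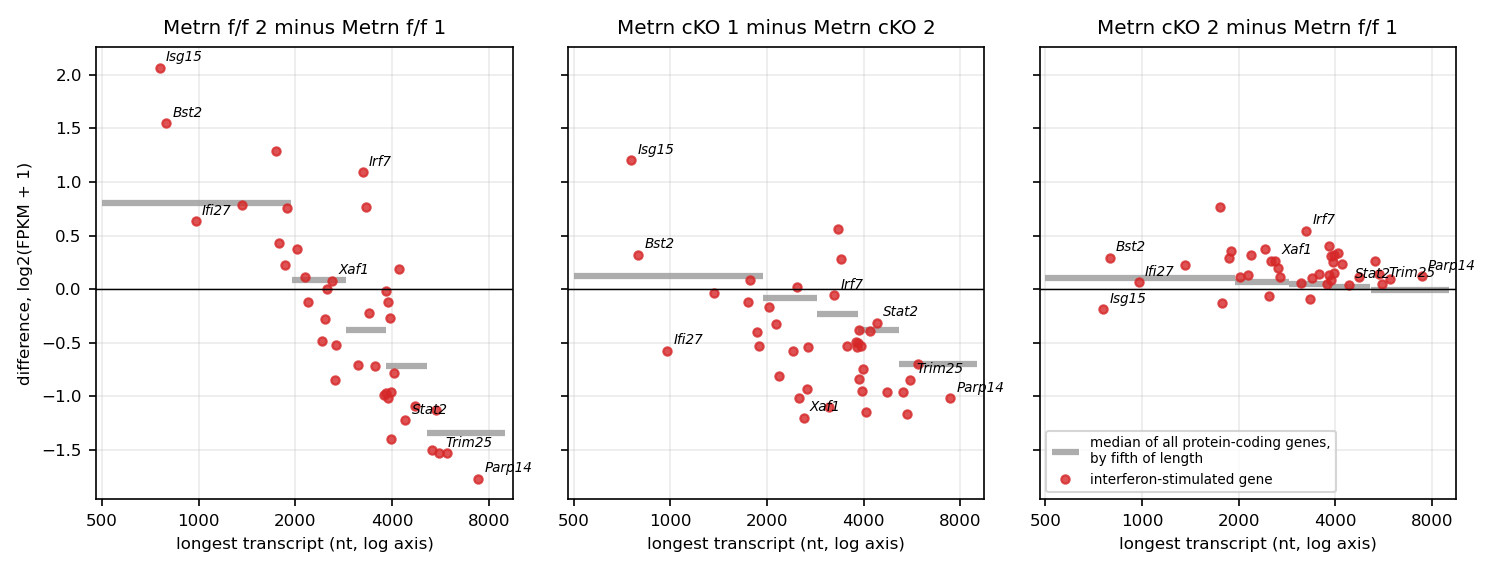
Log2 difference between pairs of libraries against the length of the longest transcript (log axis) for the 39 genes (red points), with the median of all protein-coding genes in 5 classes of length (grey bars). In the left panel the points fall from 2.07 for Isg15 to -1.77 for Parp14 along the grey bars, and in the right panel they stay between -0.19 and 0.77.

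When each library's trend with length was subtracted, a step chosen after seeing the data, 0 of the 39 genes were at least 2-fold lower in Metrn f/f 2 than in Metrn f/f 1, against 5.53% of all genes with a length, and 3 were at least 2-fold higher, against 10.2%. The median log2 difference of the 39 in this pair was -0.18, beside 0.005 over all genes, and 15 were higher in Metrn f/f 2. A Spearman rho of -0.38 with length remained among the 39 genes. Irf7 then had the largest difference of the 39, a log2 difference of 1.40 (1.09 before the step), followed by Isg15 at 1.12 and by Zbp1. The longest annotated transcript stood for the length of each gene, and which transcript was expressed was not measured. Between the Metrn cKO libraries, Isg15 was then at 1.03 and Xaf1 at -1.05 (Metrn cKO 1 minus Metrn cKO 2). They were the 1 gene of the set that was at least 2-fold higher (8.30% of all genes) and the 1 that was at least 2-fold lower (4.45%). The median of the 39 in the Metrn cKO pair was -0.25, beside 0.02 over all genes, with 8 higher in Metrn cKO 1 and a remaining rho of -0.15. Between genotypes the median log2 fold change was 0.03, with 0 of 39 genes called.

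The rest of the pathway was read from the same fit. Interferon genes themselves were almost silent: of 21 ligand genes, 17 were listed at 0 in all 4 libraries, among them all the interferon alpha genes looked for, and none reached the filter. Ifnb1, interferon beta, was listed at 0 in Metrn f/f 1 and Metrn cKO 2 and at 0.40 FPKM in Metrn f/f 2 and 0.06 FPKM in Metrn cKO 1, and Ifng had 0.80 and 0.45 FPKM in the same 2 libraries. The receptors were present. Ifnar1 had 13.8, 6.57, 10.6 and 13.1 FPKM, Ifnar2 had 38.2, 67.5, 50.7 and 52.3 FPKM, and Ifngr1 had 79.3, 76.5, 75.4 and 70.4 FPKM in the order Metrn f/f 1, Metrn f/f 2, Metrn cKO 1 and Metrn cKO 2. Ifngr1 was thus nearly level across mice in FPKM as deposited, which was not repeated on a common sum. Ifngr2 ranged from 8.75 to 21.4 FPKM. The kinase genes Jak1 and Tyk2 were lowest in Metrn f/f 2, at 20.8 and 7.91 FPKM, and had 50.8 and 20.4 FPKM in Metrn f/f 1.

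None of 3 further lists of the pathway held a called gene. Of the genes that induce interferon, 11 of 13 were tested, with 0 called and a median log2 fold change of 0.18 beside the 0.07 of all genes. Sting1, the adaptor of the DNA sensor Cgas, was nearly level in FPKM as deposited, at 35.8, 33.4, 34.8 and 33.0 FPKM. Irf3 ranged from 34.1 to 45.6 FPKM and the Toll-like receptor adaptor gene Myd88 from 22.9 to 34.8 FPKM. All 10 genes listed as negative regulators were tested with 0 called and a median of 0.03. That list also held Ube2l6, a gene of the Isg15 system that encodes the conjugating enzyme for the Isg15 protein. Ube2l6 had 30.8 and 74.0 FPKM in f/f mice and 61.6 and 26.6 FPKM in cKO mice, high in the same 2 libraries as Isg15. Ptpn6, the gene of a phosphatase that damps cytokine signals, ranged from 102 to 151 FPKM and Otud5, the gene of a deubiquitinase, from 26.2 to 28.9 FPKM. Of 57 other interferon-stimulated genes, 52 were tested with 0 called and a median of 0.03, and Ly6e, Lgals9 and Lgals3bp were the highest, with means of 320, 162 and 70.2 FPKM. Ly6e and Lgals9 were high in Metrn f/f 2 and Metrn cKO 1, and Lgals3bp was low in Metrn cKO 1.

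The 39 genes were also set beside the split of the libraries in their markers. Of the 39, 23 had lower values in both Metrn f/f 2 and Metrn cKO 1 than in the other 2 libraries, against 46.0% of all genes, as did the summed LSK and stem cell markers (658 and 501 against 1195 and 1329 FPKM). They were Irf2, Irf9 and Stat2, Ifit1 and Ifit2, Oas2, Oas3, Oasl1 and Oasl2, the sensors Ddx58, Dhx58 and Ifih1, Adar and Samhd1, all 5 ubiquitin ligases and ADP-ribosyltransferases, the GTPases Gbp2, Gbp3 and Irgm1, and Ifi44. In 3 genes, Isg15, Bst2 and Zbp1, both values were higher, against 24.0% of all genes. Summed FPKM over all genes was also higher in Metrn f/f 2 and Metrn cKO 1 (671802 and 562401 against 392717 and 412955). Neither count was repeated on a common sum. The summed markers were likewise higher for neutrophils (32594 and 58488 against 2561 and 2009 FPKM) and for macrophages and monocytes (1935 and 1179 against 429 and 381 FPKM). The plasmacytoid dendritic cell sums were also higher (67.7 and 80.5 against 39.9 and 42.0 FPKM), but the highest markers of that list were split. Cox6a2 was higher (23.8 and 32.6 against 6.63 and 7.19 FPKM) and Tcf4 lower (3.36 and 7.13 against 14.2 and 16.7 FPKM). Lag3 had 9.35 and 4.45 against 9.76 and 9.74 FPKM. Differences between these libraries also went with transcript length among the 39 genes. Spearman rho was -0.83 for Metrn f/f 2 minus Metrn f/f 1 and -0.51 for Metrn cKO 1 minus Metrn cKO 2. The part of the marked cell types in the levels of the interferon-stimulated genes was not tested and was not separated from that of length.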

How the data were processed

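LSK cells of 4 mice were profiled by RNA-seq, 1 library a mouse. The authors deposited 1 table a library of 47561 gene symbols, each with a value. The unit of these deposited values was taken as FPKM from the values themselves, which had decimals and summed to different totals (392717 to 671802). Per the submitters' processing notes, the tools included HISAT2 2.1, bcl2fastq 2.19 and cutadapt 1.16.5, with DESeq2 2.11.40.6, featureCounts 1.6.4 and the build mm10, all without roles. The strand setting, the gene annotation and the step that wrote the FPKM were not given in the sources used here. Read totals are unknown, so no counting error could be given. A few abundant genes lower the FPKM of all others: the top 20 genes took 8.71% to 21.9% of the sum.

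The 13148 genes that reached 1 FPKM in 2 or more libraries were compared on log2(FPKM + 1) with limma 3.58.1 in R 4.3.3, with an intensity trend, 2-sided, p-values adjusted by Benjamini-Hochberg across the 13148 genes and called under 0.05. SE and 95% intervals are limma's moderated ones, and fold changes understate low genes. The replicate numbers of the titles were not used to pair the mice in the fit reported. The titles state no pairing, and same-numbered libraries deviated in opposite directions, which cannot show how the mice were handled. Gene positions and transcript lengths came from GENCODE release M21 on GRCm38 (mm10), and promoters from RefSeq.

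The 39 genes and the other lists were chosen with earlier results of these data known. All 39 genes are named. Full statistics are given for the 3 with the smallest p in each direction and for Irf7, Irf9 and Stat2. Of the other pathway lists the 3 highest genes are named, with the receptors, kinases, Ifnb1 and Ifng. 1 gene of the pathway, and the list that holds it, are not reported here. Alternatives were 2 pseudocounts, 2 filters, 3 scalings, no intensity trend, array weights, replicate blocks, a length correction, each library left out, and Metrn cKO 2 against Metrn f/f 1 alone.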

Additional observations from a re-analysis of the deposited data

How the results depend on the processing

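No interferon-stimulated gene was called by limma under any alternative, and at an unadjusted p under 0.05 there were 2 of 39 at most, without Metrn f/f replicate 1, where 7.54% of all genes passed. Over all genes, 0 were called in the fit reported, 4 with the replicate block and 102 with the crossed replicate block, which was added after seeing the data and called 0 of the 39. Leaving out 1 library gave 0 to 34 genes over all (4 without Metrn cKO 1, 34 without Metrn cKO 2). Such fits assume that the lone library varies like the other group. Same-numbered libraries deviated in opposite directions (r = -0.71 over 13148 genes) and the titles state no pairing, so the replicate block is not known to describe one. The count of the 39 genes with both cKO values above both f/f values was 1. It was 0 after scaling to TPM, 2 after scaling by median ratio, 0 after quantile normalization, and 1 to 28 with 1 library left out (20, 5, 28 and 1 in the order Metrn f/f 1, Metrn f/f 2, Metrn cKO 1 and Metrn cKO 2), where fewer values have to separate and 46.2%, 24.0%, 36.0% and 17.6% of all genes did. The count with both below was 1, and was 0 under each of these 3 scalings and 2 to 13 with 1 library left out (10, 2, 3 and 13 in that order, beside 31.1%, 27.4%, 17.2% and 24.0% of all genes). Metrn cKO 2 against Metrn f/f 1 alone gave 35 above and 4 below in FPKM as deposited. The median log2 fold change of the set stayed between 0.03 and 0.21 with all 4 libraries and ran from -0.14 to 0.38 with 1 left out. The sign changed for 12 genes in some setting with all 4 libraries and for 35 with a library left out. The causes were not tested. With 2 mice a group and unknown read totals, small differences could not be detected.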
